A study of Drosophila melanogaster with 102 samples.

Results

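The genes described here are the nuclear genes of Drosophila melanogaster whose FlyBase symbol starts with mRpL or mRpS followed by a digit, which are the mitochondrial ribosomal proteins of the large and the small subunit. The rule found 73 genes of 14312 in the count tables, 47 named for the large and 26 for the small subunit, and no measured value was used to choose them. The 102 RNA-seq libraries were made from whole W1118 flies, a white mutant strain. Mothers gave 15 libraries, 5 for each of 3 diets fed for 7 days: control (CD), high fat (HFD) and high sugar (HSD). They were mated with CD-fed males, and no age is given for them in the sources used here. Their progeny were all fed the CD and kept at 25 °C with alternating light and dark, and gave 44 libraries of sons and 43 of daughters at day 0, 10 or 50, so a diet named for progeny is the diet of their mothers. Each progeny group held 5 libraries, except CD day 0 daughters and HSD day 50 daughters with 4, HFD day 50 sons with 3 and HSD day 50 sons with 6. The sources used here give no number of flies per library, and since nothing says that libraries come from separate cultures, p-values measure the spread between libraries, which may be technical.

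Mitochondria keep a ribosome of their own that makes the few proteins encoded by mitochondrial DNA, all of them parts of the oxidative phosphorylation complexes. The RNA of that ribosome is mitochondrial, while its proteins are encoded in the nucleus, made in the cytosol and imported. The small subunit holds the messenger RNA and the decoding site, and the large subunit joins the amino acids and feeds the new chain to the inner membrane. Many of the proteins descend from bacterial ribosomal proteins and others were added in mitochondria. By the numbering of the names alone, 42 of the 73 were counted with the first kind (up to L36 and S21) and 31 with the second. Descent was not checked gene by gene, so this split can misplace single genes. The letter in the symbol does not always give the place in the ribosome: in the human mitochondrial ribosome the counterparts of mRpS18A and mRpS30 sit in the large subunit. The genes lie on chromosome arms 2L (12 genes), 2R (12), 3L (17), 3R (21) and X (11).

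Total counts ran from 6332907 to 19469296 per library, and levels are given as CPM, the count scaled to the effective library size. A transcript of the other sex exceeded 10 CPM in 5 libraries. Among CD day 0 sons, the ovarian transcript osk was found at 18 CPM in the library labelled m1, 198 CPM in m3 and 47.2 CPM in m4. The male accessory gland transcript Acp36DE was present in them too, at 1102, 1004 and 1104 CPM in the same order. Among HFD day 0 sons, the library labelled m8 had 1327 CPM of osk and none of Acp36DE. Its mean log2 muscle level was 6.51, against 10.5 to 10.9 in the other HFD day 0 sons. Among HSD day 0 daughters, 452 CPM of Acp36DE were found in the library labelled f12, beside 105 CPM of osk. Tissue transcripts also set libraries apart from others of their labelled day. Among HFD day 10 daughters, the library labelled f22 had a mean log2 muscle level of 11.25, against 9.44 to 10.44 in the others. HFD day 0 daughters were at 9.80 to 11.64. The ovary germline level of f22 was 4.83, against 6.84 to 7.10 in the other HFD day 10 daughters. Among HSD day 0 daughters, the libraries labelled f13 and f15 had muscle levels of 9.61 and 9.35, against 11.4 to 11.6 in f11, f12 and f14. Their ovary germline levels were 7.15 and 7.01, against 4.67 to 5.25 in f11, f12 and f14. Among HSD day 50 sons, the library labelled m45 had a mean log2 muscle level of 10.83, against 8.08 to 8.47 in the other 5, and 9.58 to 10.87 in HSD day 0 sons. Among HSD day 10 sons, the library labelled m27 had a mean log2 testis level of 2.79, against 5.83 to 6.22 in the other 4, and 3.24 to 5.85 in HSD day 50 sons. In RNA from whole flies, fewer cells of a type and less RNA per cell cannot be told apart.

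All 73 genes passed the filter on low counts in each of the 40 comparisons. Levels per length, as the mean CPM over 21 groups divided by the length of the longest transcript in kb, ran from 13.6 to 81.1 with a median of 30.4. The highest was mRpL12, whose product forms the flexible stalk that brings translation factors to the ribosome, at 81.1 CPM per kb. Next came mRpL28, a protein of bacterial descent in the large subunit, at 77.9, and mRpS5, near the entry of the messenger RNA, at 75.3. The lowest levels per length were those of mRpL21 (13.6), mRpS24 (18.8) and mRpL11 (19.7), a protein at the base of the stalk. The median was 29.8 CPM per kb for the large and 31.6 for the small subunit. Before division by length the mean level ran from 7.93 CPM for mRpL34 to 107 CPM for mRpS5, and the lowest value of mRpL34 in any library was 1.67 CPM.

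The 2 sexes of the progeny formed separate levels, and age and maternal diet moved the genes less. The mean of log2(CPM + 1) over the 73 genes was between 4.77 and 5.26 in the 9 groups of daughters and between 4.04 and 4.43 in the 9 groups of sons. Mothers, whose counts were scaled separately, were at 4.996 ± 0.07 on CD, 5.03 ± 0.03 on HFD and 4.97 ± 0.08 on HSD (SD, n = 5 each). All 73 genes had their highest progeny group among daughters, 50 of them in HFD day 50 daughters and 16 in HFD day 0 daughters. For 72 genes the lowest group was a group of sons. The exception was mRpS33, a small-subunit protein with no bacterial counterpart, which was lowest in HSD day 10 daughters. Without m8, HFD day 0 sons were at 4.27 ± 0.10 (n = 4) in place of 4.43, without m1, m3 and m4 CD day 0 sons were at 4.26 (n = 2), and without f12 HSD day 0 daughters were at 4.83 ± 0.11 (n = 4). The plot of every library shows both levels and 3 libraries that stood apart from their group.

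**Figure D1:**
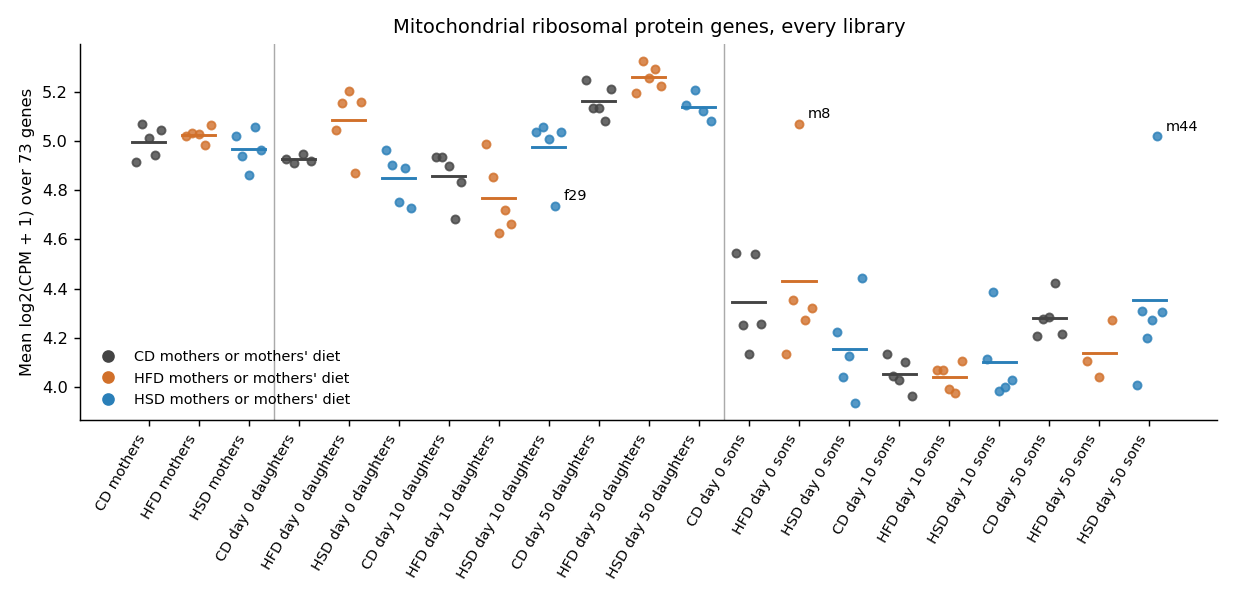
Mean log2(CPM + 1) over the 73 mitochondrial ribosomal protein genes in every library (points) with the mean of each group (lines), by group on the horizontal axis and coloured by diet; mothers and progeny were scaled separately. Group means of daughters lie between 4.77 and 5.26 and those of sons between 4.04 and 4.43, while libraries m8 at 5.07 and m44 at 5.02 lie above the other sons.

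Within progeny the range of a gene over the 18 group means had a median of 1.49 on the log2 scale. It was widest for mRpL12 (2.36), mRpL39 (2.21), whose human counterpart resembles part of threonyl-tRNA synthetase, and mRpL1 (2.14), the protein of the stalk near which spent tRNA leaves. It was narrowest for mRpS33 (0.62), mRpL40 (0.71) and mRpS21 (0.82). Over the 21 groups, 67 of 73 genes had a correlation of at least 0.7 with the mean of the other 72. The 5 lowest were mRpS33 (0.35), mRpL28 (0.40), mRpL24 (0.46), mRpL27 (0.56) and mRpL42 (0.63). These are descriptions over group means that share sex and scaling.

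Sons held less of these transcripts than daughters on each day when progeny of CD mothers were compared. At day 0, 68 of 73 genes were lower in sons and 0 were higher, where 34.4% of the 12895 genes tested were lower and 27.3% higher (edgeR quasi-likelihood test, adjusted p under 0.05 over all genes). At day 10, 65 were lower and 0 higher, with 38.1% and 45.2% of all genes. At day 50, 62 were lower and 1 was higher, with 34.1% and 53.6% of all genes. The median log2 fold change of the 73 genes was −0.57, −0.78 and −0.80 on the 3 days, and that of all genes −0.16, 0.17 and 0.69. Of the 73, 55 were lower in sons on all 3 days. The share of all genes lower on all 3 days is not given here. The 3 comparisons came from 1 fit and share its scaling and estimate of the spread. By subunit, 44, 43 and 42 of the 47 large-subunit genes and 24, 22 and 20 of the 26 small-subunit genes were lower at days 0, 10 and 50.

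mRpL12 stood at 50.6, 64.1, 59.5 and 55.1 CPM in the 4 CD day 0 daughters and at 41.8, 27.8, 35.8, 34.6 and 33.3 CPM in the sons. At day 10 it was at 85.6, 80.4, 74.4, 55.5 and 64.4 CPM in daughters and 20.7, 20.9, 24.1, 23.8 and 21.5 CPM in sons. At day 50 it was at 117, 108, 113, 98.4 and 107 CPM in daughters and 20.6, 32.4, 24.6, 33.2 and 26.8 CPM in sons. The sexes did not overlap on any day, and daughters at day 50 lay above all daughters at day 0, while sons at day 10 lay below all sons at day 0. Its log2 fold change was −1.58 ± 0.13 at day 10 (SE; adjusted p = 1.58e-11, edgeR) and −1.79 ± 0.13 at day 50 (adjusted p = 2.05e-12, edgeR). CPM in the text are scaled over all progeny libraries while each fit scaled its own libraries, so a ratio of printed CPM can differ from the fitted fold change.

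The greatest falls at day 50 were those of mRpS10, a protein of the head of the small subunit, by 1.87 ± 0.12 on the log2 scale, and of mRpL12. mRpS10 was at 48.6, 41.3, 47.6, 38 and 47.9 CPM in daughters and 8.55, 8.69, 13.7, 12.1 and 10.3 CPM in sons. mRpS18A followed with −1.71 ± 0.10 and mRpL15 with −1.38 ± 0.11, and for both no son reached the lowest daughter. At day 10 the lowest after mRpL12 were mRpL39, by 1.57 ± 0.11, and mRpL1, by 1.39 ± 0.09. mRpL1 was at 59.2, 63.8, 60.2, 51.1 and 56.5 CPM in day 10 daughters and 21.5, 19.3, 18.8, 24.3 and 18.9 CPM in sons, with no overlap. At day 0 the greatest were mRpL33 (−1.07 ± 0.16), mRpL37 (−1.05 ± 0.11) and mRpL23 (−0.99 ± 0.09), a protein at the rim of the tunnel through which the new chain leaves. mRpL1 (−0.96 ± 0.10) and mRpS30 (−0.68 ± 0.08) at day 0, and mRpS29 (−0.96 ± 0.08) at day 10, were also among those of smallest adjusted p.

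A few genes did not follow. mRpS33 was at 14, 16.3, 15.1, 13.6 and 11.9 CPM in CD day 10 daughters and 18.3, 16, 13.7, 15.9 and 13.3 CPM in sons, which overlap (log2 fold change 0.24 ± 0.11, adjusted p = 0.0587, edgeR). Without m1, m3 and m4, the CD day 0 sons with osk, it was called higher in sons (0.23, adjusted p = 0.0471, edgeR). mRpL28 differed between sons and daughters by 0.01 ± 0.09 at day 50 (adjusted p = 0.927), and mRpL27, which in bacteria reaches to the site of peptide bond formation, by −0.00 ± 0.13 (adjusted p = 0.994). mRpS22, a small-subunit protein without a bacterial counterpart, was the single gene called higher in sons, at day 50 (0.23 ± 0.08, adjusted p = 0.0122). Its CPM were 59.9, 50.7, 53.2, 57.6 and 61.7 in daughters and 59.5, 54.4, 56.7, 62.2 and 56.5 in sons. These overlap, and 1 fit over all progeny groups called 0 members higher at day 50.

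The size of the sex difference depends on the scaling. With median-of-ratios size factors the median of all genes moved by 0.23, 0.18 and 0.08 at days 0, 10 and 50, and 48, 54 and 58 members were lower; 2 members, mRpS17 (0.25) and mRpS33 (0.42), were then higher at day 10. Relative to the median of all genes, the members' median was −0.41, −0.95 and −1.48 with the first scaling and −0.42, −0.95 and −1.48 with the second. Without the library labelled m3, 37 members were lower at day 0, and without m1, m3 and m4 together 66 were. Over all genes, 6975 were called at day 0 without m3, against 7951 with every library. The share of all genes beside the 66 is not given here. Markers of the gonads differed with sex as the labels say: the ovary germline list of 18 genes had a median of −1.81, −3.71 and −3.87 at the 3 days and the testis list of 18 genes 8.30, 9.32 and 6.42. Their part in the difference was not tested.

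Several other lists of mitochondrial gene expression had more members lower than higher in sons, while the counts for oxidative phosphorylation changed direction with age. tko and bonsai, which encode the counterparts of the small-subunit proteins S12 and S15 under other names, were both lower on all 3 days. Of 20 genes of mitochondrial transcription and RNA processing, 17, 19 and 15 were lower, and of 18 mitochondrial tRNA synthetases 11, 13 and 13, with 3, 4 and 2 higher. Of 10 mitochondrial translation factors 6, 6 and 9 were lower and 3, 3 and 0 higher. At day 0 the lists differed by measure: the median log2 fold change was −0.37 for the factors and −0.38 for the synthetases, but their mean log2 levels were 5.02 ± 0.07 and 4.18 ± 0.04 in sons and 4.95 ± 0.05 and 4.15 ± 0.06 in daughters. Of 65 nuclear genes of oxidative phosphorylation, 57 were lower and 0 higher at day 0, 10 lower and 17 higher at day 10, and 1 lower and 53 higher at day 50. All 13 mitochondrially encoded proteins were lower in sons at day 0 and higher at day 50. The 28 muscle genes were higher in sons at day 50, all 28 of them, with a median of 2.32.

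**Figure D2:**
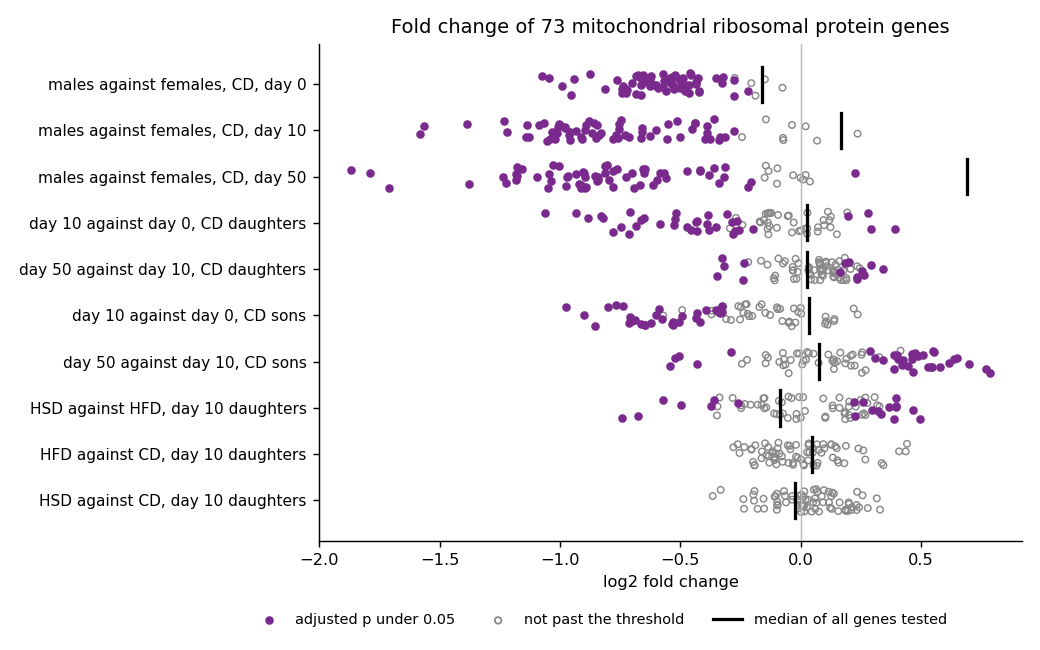
Log2 fold change of each of the 73 genes (points; filled where the edgeR adjusted p is under 0.05) in 10 comparisons, with the median of all genes tested as a black line. In the sex comparisons the medians of the 73 genes, −0.57, −0.78 and −0.80, lie left of that line, whereas HFD or HSD against CD in day 10 daughters had no filled point.

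Age moved the genes of CD daughters in both directions and by less than it moved oxidative phosphorylation. Between day 0 and day 10, 32 of 73 fell and 4 rose, where 34.7% of the 10526 genes tested fell and 36.6% rose. The median log2 fold change was −0.17 in members and 0.03 over all genes. Of the 42 genes numbered up to L36 or S21, 23 fell and 1 rose, and of the 31 with higher numbers 9 fell and 3 rose. In the same libraries all 65 nuclear genes of oxidative phosphorylation fell, with a median of −1.37, and all 13 mitochondrially encoded genes, with a median of −1.74. Of the 28 muscle genes all 28 fell (median −1.90) and 16 of 18 ovary germline genes rose (median 1.12), and the part of either in the members' values was not tested.

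mRpL42, a large-subunit protein with no bacterial counterpart, fell most. It was at 47.6, 41.2, 44.6 and 43.1 CPM in day 0 daughters, at 25.6, 22.7, 25.1, 23.4 and 21.7 CPM at day 10 and at 24.8, 24.3, 25.9, 23.8 and 21.7 CPM at day 50. Day 0 lay above both later days without overlap, and the log2 fold change from day 0 to day 10 was −1.06 ± 0.08 (adjusted p = 4.66e-06, edgeR). mRpL28 fell by 0.93 ± 0.09, from 169, 137, 142 and 149 CPM to 74.6, 90.4, 97.6, 92.9 and 82.3 CPM, again without overlap. mRpL24 fell by 0.88 ± 0.09, and mRpS14, of the head of the small subunit, by 0.71 ± 0.08.

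mRpS29 rose, with a log2 fold change of 0.39 ± 0.08 (adjusted p = 0.000468, edgeR). This gene encodes a GTP-binding protein of the small subunit, the counterpart of human DAP3. It was at 31.3, 27.9, 31 and 30.3 CPM at day 0, at 51.1, 46.4, 46.6, 36.3 and 42.6 CPM at day 10 and at 59.9, 56.9, 61.1, 54.7 and 59.5 CPM at day 50, and the 3 days did not overlap. The other rises were those of mRpS26 (0.29 ± 0.11), mRpS18B (0.28 ± 0.10) and mRpL37 (0.19 ± 0.08). With median-of-ratios size factors 40 members fell and 1 rose, mRpS29 (0.33), and 1 fit over all progeny groups called 12 falls and 0 rises. The share of all genes called in either setting is not given here. With median-of-ratios size factors the median of all genes moved from 0.03 to −0.04. Relative to that median, the members' median was −0.19 with both scalings.

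From day 10 to day 50 in CD daughters, 9 members rose and 5 fell, where 16.1% of all genes rose and 30.1% fell. mRpL12 rose by 0.34 ± 0.10, and mRpL3 (0.26 ± 0.08) and mRpL16 (0.23 ± 0.07), proteins around the site of peptide bond formation, and mRpL54 (0.25 ± 0.09) rose as well. mRpL28 (−0.35 ± 0.08), mRpL27 (−0.33 ± 0.09), mRpL9 (−0.32 ± 0.07), mRpS9 (−0.24 ± 0.07) and mRpL42 (−0.23 ± 0.07) fell. Leaving out 1 library gave between 7 and 17 calls: 9 each without f18, f31 or f34, 8 each without f19 or f32, and 7 without f35. Over all genes, the calls in these named settings ran from 3822 (f35) to 4333 (f32), against 4863 with every library. The mean log2 level of the 73 genes was 4.93 ± 0.02 at day 0 (n = 4), 4.86 ± 0.11 at day 10 and 5.16 ± 0.07 at day 50 (n = 5 each). That of the nuclear oxidative phosphorylation genes was 9.02 ± 0.18, 7.82 ± 0.32 and 6.93 ± 0.05 on the same days.

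**Figure D3:**
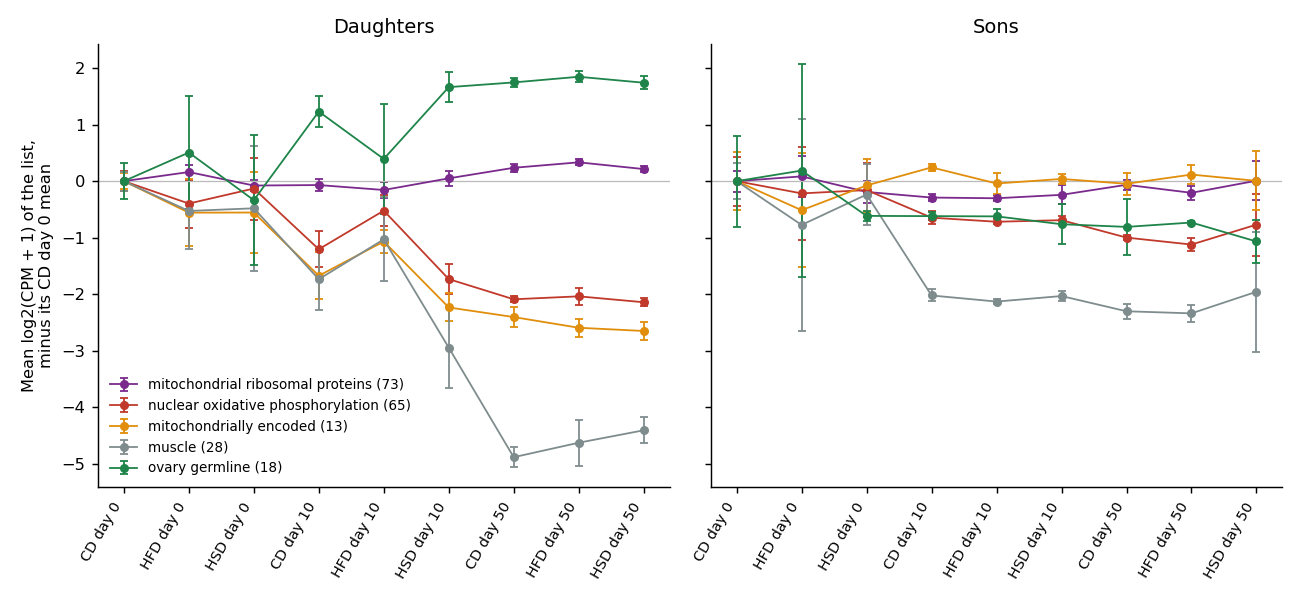
Mean log2(CPM + 1) of 5 gene lists in each progeny group, minus the list's mean in the CD day 0 group of the same sex (points, with SD over libraries), for daughters and sons; n is 5 except for the 4 groups named at the start. In daughters the nuclear oxidative phosphorylation list went from 9.02 at CD day 0 to 6.93 at CD day 50, while the 73 mitochondrial ribosomal protein genes went from 4.93 to 5.16.

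Over the 9 groups of daughters, a mitochondrial ribosomal protein gene had a median range of 0.62 on the log2 scale, and 6 of 73 had a range over 1. The nuclear oxidative phosphorylation genes had a median range of 2.18, with 64 of 65 over 1, and the mitochondrially encoded genes 2.75, with 13 of 13. The ranges were closer to each other in sons, with medians of 0.60, 1.20 and 0.76. Among daughters' groups, 38 of 73 genes had a correlation of −0.7 or less with the mean of the nuclear oxidative phosphorylation list and 3 had one of at least 0.7, as a description over 9 group means. Those 3 were mRpL28 (0.95), mRpL27 (0.87) and mRpL42 (0.87), which are also 3 of the 5 that followed the other members least. In the 9 groups of sons the counts were 17 at 0.7 or more and 5 at −0.7 or less, and mRpS18A, for one, had −0.92 in daughters and 0.94 in sons. The lowest values in daughters were those of mRpS29 (−0.99), mRpS26 (−0.98), mRpL1 (−0.97) and mRpS18B (−0.97). With the ovary germline list the signs were the other way round, −0.95 for mRpL28 and 0.98 for mRpS29, and the lists of ovary, muscle and oxidative phosphorylation share the same libraries, so their parts cannot be told apart here.

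**Figure D4:**
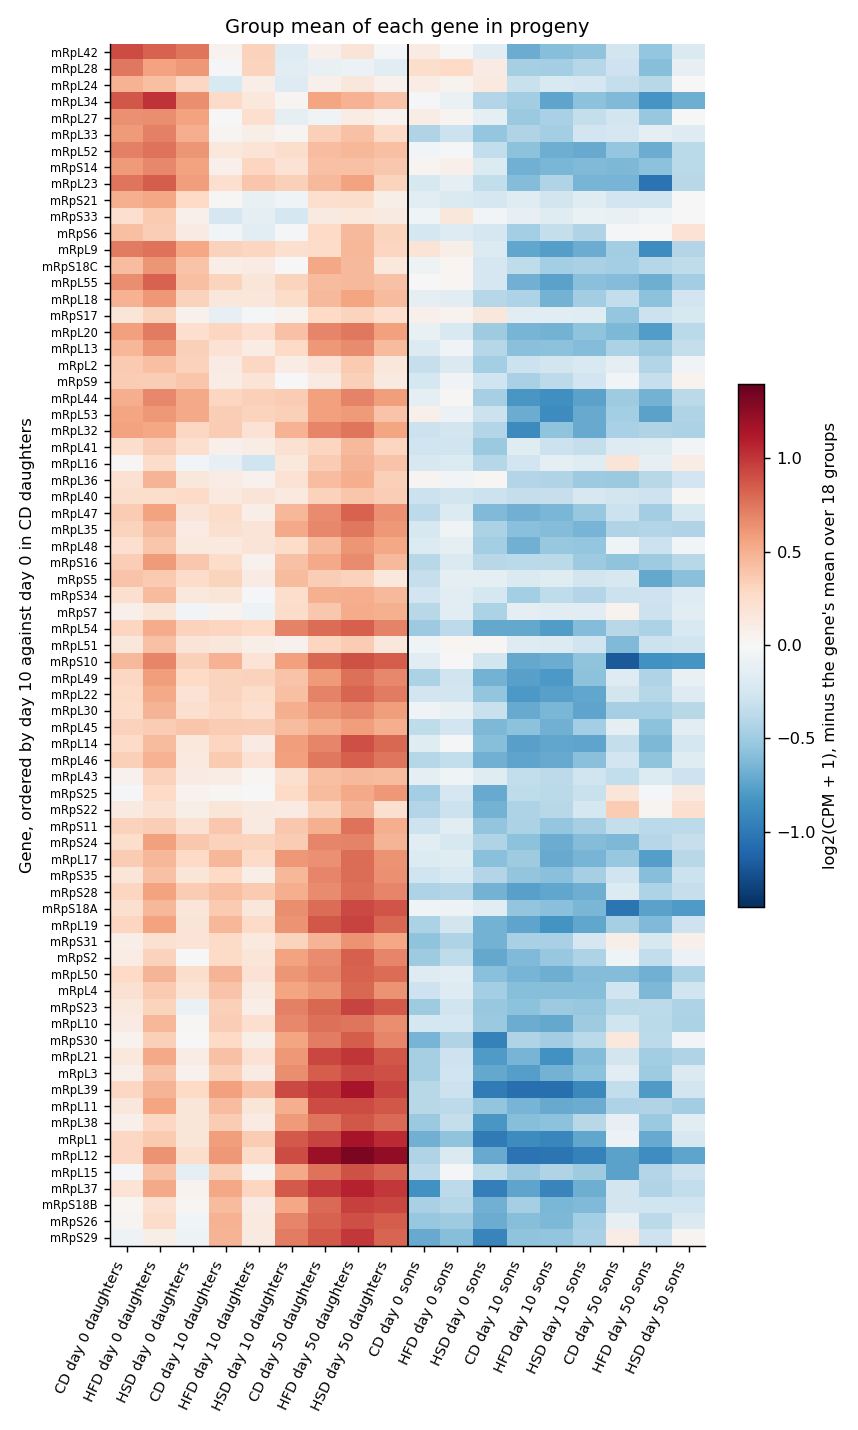
Group means of log2(CPM + 1) of the 73 genes (rows, ordered by the fold change from day 0 to day 10 in CD daughters) in the 18 progeny groups (columns), each minus the gene's mean over those groups; red is above and blue below it. Genes at the top, such as mRpL42 and mRpL28, are highest in day 0 daughters, and genes at the bottom, such as mRpS29 and mRpL12, in day 50 daughters.

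Daughters of HSD mothers had both kinds of change between day 0 and day 10. There 20 members fell and 19 rose, where 38.7% of the 10432 genes tested fell and 34.5% rose, so the members' shares were below those of all genes. mRpL42 (−1.22 ± 0.21), mRpL28 (−1.02 ± 0.20), mRpL27 (−0.93 ± 0.15) and mRpS9 (−0.57 ± 0.11) fell, and mRpL39 (0.48 ± 0.10), mRpL15 (0.51 ± 0.11), mRpL10, the anchor of the stalk (0.51 ± 0.12), and mRpL3 (0.44 ± 0.10) rose. Of the falls, 19 were shared with CD daughters, which is 95% of those in HSD and 59.4% of those in CD daughters. The share of all genes that fell in both is not given here. Without f12, which held a transcript of the other sex, 18 fell and 15 rose, and the share of all genes in that setting is not given here. That fit kept f13 and f15, the HSD day 0 daughters of lowest muscle level.

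In daughters of HFD mothers, 0 members passed between day 0 and day 10 by edgeR, as did 0% of the 10548 genes tested. At an unadjusted p under 0.05, 27 members were lower and 0 higher, where 9.98% of all genes passed, and DESeq2 called 7 members and 0.673% of genes. The smallest p were those of mRpL34 (−0.83 ± 0.22) and mRpL9 (−0.40 ± 0.11), both with adjusted p = 0.319. Without the libraries f21 and f22, whose mean level of muscle transcripts was higher than in the other HFD day 10 daughters (10.44 and 11.25, against 9.44 to 10.05 on the log2 scale), 28 members fell. Without f21 alone 3 fell, among 201 genes called. The share of all genes called beside the 28 is not given here.

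From day 10 to day 50, 23 members rose and 3 fell in HFD daughters, where 24.6% of all genes rose and 38.5% fell. mRpL12 rose by 0.71 ± 0.18, mRpL3 by 0.49 ± 0.14, mRpL21 by 0.49 ± 0.13 and mRpL47 by 0.41 ± 0.11, and mRpL28 (−0.75 ± 0.15), mRpL42 (−0.50 ± 0.19) and mRpL27 (−0.47 ± 0.16) fell. Between 14 and 31 members were called when 1 library was left out, with 17, 15, 14 and 16 without f23, f37, f38 and f39. Over all genes, 6415, 5662, 5957 and 5745 were called in the same order, against 6653 with every library. In HSD daughters 0 members passed by edgeR, as did 0.901% of all genes, with 1 member and 12.8% of genes at an unadjusted p under 0.05, and 1 member and 5.37% of genes by DESeq2. The 2 of smallest p were mRpS5 (−0.45 ± 0.13, adjusted p = 0.138) and mRpS18B (0.27 ± 0.13, adjusted p = 0.403).

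In CD sons, 31 members fell and 0 rose from day 0 to day 10, where 11.9% of the 12609 genes tested fell and 16% rose. The falls were mostly in the large subunit, 28 of 47 genes with a median log2 fold change of −0.39, against 3 of 26 with a median of −0.12 in the small. mRpL9 was at 47.1, 37.1, 28.2, 48.8 and 42 CPM at day 0 and 22.3, 19, 19.6, 19.6 and 23.1 CPM at day 10, without overlap (−0.97 ± 0.13, adjusted p = 6.57e-05, edgeR). mRpL28 (−0.74 ± 0.12), mRpL44, which has the fold of a ribonuclease (−0.71 ± 0.10), and mRpL39 (−0.71 ± 0.11) fell as well. Sons and daughters of CD mothers shared 16 of these falls, 51.6% of those in sons and 50% of those in daughters, among them mRpL9, mRpL28 and mRpL42. Without m1, m3 and m4, which leaves 2 day 0 sons, 17 members fell, and mRpL9 then had a log2 fold change of −0.94. The share of all genes that fell in that setting is not given here.

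Between day 10 and day 50 in CD sons, 28 members rose and 5 fell, where 34.1% of all genes rose and 31.8% fell. mRpL1 rose by 0.79 ± 0.10, from 21.5, 19.3, 18.8, 24.3 and 18.9 CPM to 33.8, 33.9, 36.6, 38.9 and 38.8 CPM, without overlap. mRpS22 rose by 0.77 ± 0.09, from 34.4, 33.6, 32.8, 33.2 and 31.5 CPM to 59.5, 54.4, 56.7, 62.2 and 56.5 CPM, also without overlap. Other rises were those of mRpL39 (0.70 ± 0.11) and mRpS29 (0.65 ± 0.07). mRpS18A (−0.54 ± 0.10), mRpS10 (−0.52 ± 0.13), mRpL51 (−0.50 ± 0.13) and mRpS17 (−0.43 ± 0.11) fell. Of the 31 genes numbered above L36 or S21, 16 rose and 1 fell, and of the 42 others 12 rose and 4 fell. In the same comparison all 18 testis genes fell, with a median of −2.66, 83 of 92 cytosolic ribosomal protein genes rose, and the part of the testis in these values was not tested.

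The 3 genes that share the stem mRpS18 took different courses. mRpS18A was at 22.1, 18.5, 17.4, 23.1 and 17.6 CPM in CD sons at day 0, at 14.3, 14.5, 13.5, 13.7 and 12.4 CPM at day 10 and at 8.63, 9.8, 9.46, 10.9 and 9.43 CPM at day 50. The 3 days did not overlap, and it fell in both steps (−0.53 ± 0.10 and −0.54 ± 0.10). In CD daughters mRpS18A was at 26.1, 20.1, 24.4 and 26.7 CPM at day 0 and at 34, 39.1, 34.1, 35.7 and 37.9 CPM at day 50, so the later day was the higher one, although neither step passed the threshold. mRpS18B rose in CD daughters from day 0 to day 10 and did not pass in either step in sons (−0.01 ± 0.16 and 0.19 ± 0.16). mRpS18C fell in CD daughters from day 0 to day 10 (−0.53 ± 0.13), from 17.9, 14.4, 16.7 and 14.6 CPM to 11.9, 12.1, 14.5, 10.5 and 12.8 CPM, with 1 library of each day overlapping.

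In HFD sons, 6 members fell and 0 rose from day 0 to day 10, where 2.8% of the 12728 genes tested fell and 5.49% rose. They were mRpL28 (−0.73 ± 0.13), mRpL9 (−0.84 ± 0.17), mRpL44 (−0.90 ± 0.19), mRpL55 (−0.84 ± 0.19), mRpS14 (−0.71 ± 0.16) and mRpL52 (−0.66 ± 0.17). mRpL9 was at 29.3, 36.3, 45.4, 37.5 and 36.6 CPM at day 0, the 45.4 being library m8, and at 23.7, 20.9, 20.5, 17.9 and 17.4 CPM at day 10, and the days did not overlap. Without m8, 29 members fell and 2 rose, mRpS29 (0.45) and mRpS30 (0.22). In that setting 4368 of all genes were called, against 1055 with m8. From day 10 to day 50, 0 members passed by edgeR, as did 1.59% of all genes, with 5 members and 11.6% of genes at an unadjusted p under 0.05, and 2 members and 5.41% of genes by DESeq2. The smallest p were those of mRpL23 (−0.62 ± 0.21, adjusted p = 0.205) and mRpS5 (−0.51 ± 0.18, adjusted p = 0.219). Without m8, which is part of the same fit and so of its estimate of the spread, 15 rose and 2 fell, mRpL23 (−0.60) and mRpS5 (−0.49). The calls among all genes also went up without it, from 202 to 5543.

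HSD sons gave 0 calls among members by edgeR in both age steps, as did 0.442% of the 12681 genes tested from day 0 to day 10 and 0% from day 10 to day 50. Before adjustment, at p under 0.05, 7 members and 19.8% of genes passed in the first step, and 11 members and 24.2% of genes in the second. DESeq2 called 1 member and 7.68% of genes in the first step and 0 members in the second. mRpL28 and mRpL9 had log2 fold changes of −0.55 ± 0.19 and −0.54 ± 0.21 in the first step (adjusted p = 0.14 and 0.176), and mRpL39 and mRpL22 of 0.71 ± 0.23 and 0.64 ± 0.21 in the second (adjusted p = 0.156 for both). Without m27 12 members rose in the second step among 3731 genes called, and without m45 6 did among 2945. Without both, which stood apart from their labelled day, 22 rose and 1, mRpS18A (−0.43), fell in the second step, among 6928 genes called, and 0 members passed in the first. mRpS29 (0.94), mRpS22 (0.90), mRpL39 (0.94) and mRpL22 (0.78) were then among the rises. This setting was chosen after seeing the data.

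Between day 0 and day 10 the fold change rose with transcript length among these genes in 5 of 6 groups, HFD sons being the exception. Between day 10 and day 50 the relation was weaker or absent in daughters and weaker in HSD sons, but stronger in CD and HFD sons. From day 0 to day 10, Spearman's rho between log2 fold change and the length of the longest transcript was 0.49 over the 73 members in CD daughters, 0.60 in HFD daughters and 0.43 in HSD daughters, and 0.02, 0.07 and 0.03 over all genes tested. In CD sons it was 0.24, against −0.05 over all genes. From day 0 to day 10 it was 0.46 in HSD sons and −0.00 in HFD sons, against 0.11 and −0.14 over all genes. From day 10 to day 50 it was 0.05 in CD, 0.26 in HFD and −0.13 in HSD daughters and 0.53 in CD, 0.16 in HFD and 0.26 in HSD sons, against −0.16, −0.01, −0.23, 0.14, −0.08 and −0.02 over all genes. The 32 members that fell in CD daughters had a median length of 714.5 bases and the 4 that rose one of 1109.5. mRpL34, the shortest with 327 bases, fell by 0.83 ± 0.19 on the log2 scale, and mRpL28 fell with a length of 1170 bases. These are descriptions across genes of the same libraries, and genes are not independent replicates.

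**Figure D5:**
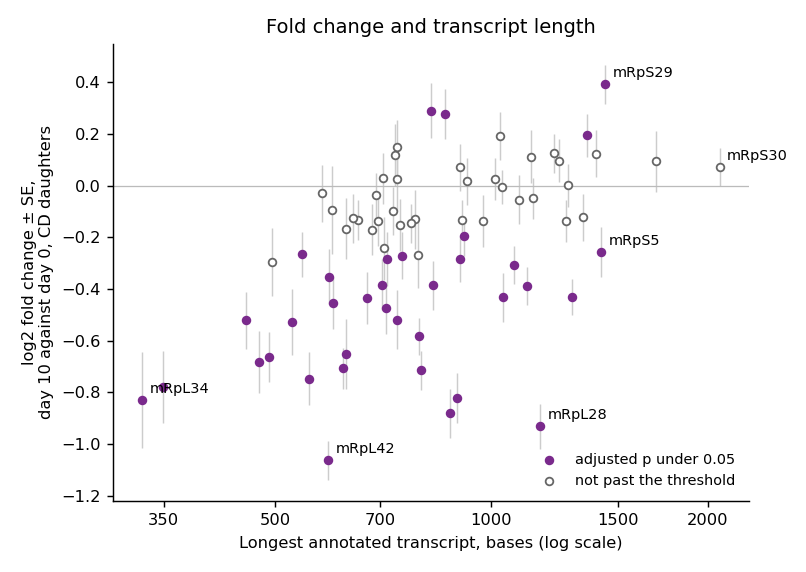
Log2 fold change from day 0 to day 10 in CD daughters (vertical axis, with SE) against the length of the longest annotated transcript in bases (horizontal axis, log scale) for the 73 genes; filled points have an edgeR adjusted p under 0.05. Short genes such as mRpL34, at 327 bases and −0.83, lie low, while mRpS29, at 1440 bases and 0.39, is the highest point.

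The mothers' own diet moved none of these genes past the threshold. By edgeR 0 members passed in any of the 3 pairs of diets (HFD against CD, HSD against CD, HSD against HFD), as did 0% of the 10243 genes tested in each, and DESeq2 called 0 members in each. At an unadjusted p under 0.05, 2, 0 and 1 members passed in the 3 comparisons, where 3.07%, 9.26% and 8.11% of all genes did. mRpL50 had 0.18 ± 0.08 in HFD against CD (adjusted p = 0.999) and −0.23 ± 0.08 in HSD against HFD, where mRpL39 had −0.12 ± 0.06 (adjusted p = 0.609 for both). mRpL39 was at 65.7, 56.4, 61.4, 60.5 and 60.6 CPM in CD mothers and at 64.8, 65.7, 69.7, 63 and 73.6 CPM in HFD mothers, which overlap (0.15 ± 0.06, adjusted p = 0.999). In HSD against CD the nearest were mRpS9 (0.10 ± 0.05) and mRpL38 (−0.12 ± 0.07), both with adjusted p = 0.544. The members' medians were 0.03, −0.04 and −0.07. The 3 comparisons share libraries, here and in progeny.

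Maternal diet separated the genes of day 10 daughters in 1 comparison, HSD against HFD. There 13 members were higher and 7 lower, where 31.9% of the 10354 genes tested were higher and 34.4% lower, so the members' shares were below those of all genes. mRpL42 (−0.74 ± 0.17, adjusted p = 0.00359, edgeR), mRpL28 (−0.68 ± 0.15), mRpL27 (−0.57 ± 0.14) and mRpL2, at the site of peptide bond formation (−0.37 ± 0.11), were lower in daughters of HSD mothers. mRpL12 (0.49 ± 0.15), mRpL37 (0.39 ± 0.11), mRpL3 (0.39 ± 0.11) and mRpL39 (0.37 ± 0.10) were higher. mRpL28 was at 118, 162, 90.3, 88.9 and 105 CPM in HFD and 74.3, 81.1, 74.1, 81.2 and 85.4 CPM in HSD libraries, without overlap. mRpL12 was at 75, 47.3, 54.4, 52.5 and 53.1 CPM in HFD and 94, 108, 88.8, 62.7 and 96.2 CPM in HSD libraries, and the groups overlapped in 1 library of each.

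Tissue markers differed in the same comparison. All 65 nuclear oxidative phosphorylation genes were lower in HSD than HFD day 10 daughters, with a median of −1.39, as were all 28 muscle genes (median −2.06), and 13 of 18 ovary germline genes were higher (median 0.82). The mean log2 level of the ovary germline list lay between 4.83 and 7.10 in HFD and between 7.38 and 8.02 in HSD libraries, and that of muscle between 9.44 and 11.25 and between 7.51 and 9.37. Testis markers were near the floor in both groups (0.61 ± 0.07 and 0.54 ± 0.03), as were accessory gland markers (0.02 ± 0.02 and 0.01 ± 0.01). With the ovary germline level as a covariate 0 of the 73 members passed, mRpL28 having a log2 fold change of −0.25 and mRpL12 of 0.20. That level did not overlap between HFD and HSD libraries, so this fit cannot separate it from maternal diet. Without f21 and f22, the HFD libraries with the highest muscle level, and f26 and f27, the HSD libraries with the lowest, 5 were higher and 1, mRpL28 (−0.40), lower. That choice narrows the muscle difference between the groups and leaves fewer libraries, so the lower count cannot be read as a result about the members. The share of all genes called in that setting is not given here. Without f29, whose muscle level of 9.37 was the highest of the HSD libraries, 26 members were called, and the share of all genes is not given here. Leaving out any 1 library gave between 12 and 31 calls: 31 without f21, 13 each without f26 or f28, and 12 each without f22, f27 or f30. Over all genes, 6987 were called without f21, 5888 without f26, 6282 without f28, 6145 without f22, 5738 without f27 and 5891 without f30. With every library 6867 were called.

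Against CD, no member passed the threshold in day 10 daughters. By edgeR 0 members passed in HFD against CD, as did 0.0483% of all genes, and 0 in HSD against CD, as did 0%. Before adjustment, at p under 0.05, 7 members and 28.5% of genes passed for HFD and 3 members and 23.2% of genes for HSD, and DESeq2 called 0 members in both. mRpL28 (0.44 ± 0.15, adjusted p = 0.131) and mRpL24 (0.44 ± 0.17, adjusted p = 0.149) had the smallest p for HFD, and mRpL39 (0.28 ± 0.10) and mRpL54 (0.33 ± 0.13) for HSD, both with adjusted p = 0.206. Without f29, 1 member was called for HSD, among 1350 genes called.

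In day 0 daughters the members of HSD mothers lay below those of HFD mothers without passing the threshold. By edgeR 0 members passed in any pair of diets, as did 0% of the 10630 genes tested in each. At an unadjusted p under 0.05, 5 members passed in HFD against CD (2.63% of all genes), 3 in HSD against CD (2.81%) and 25 in HSD against HFD (12.4%), where all 25 were lower in HSD. DESeq2 called 6 members in HSD against HFD, where it called 1.38% of genes, and 0 in the other 2. The members' median was −0.25 in HSD against HFD and 69 of 73 were negative, while the median of all genes was 0.02. mRpL15 was at 22.2, 36.4, 41.4, 24.2 and 35.3 CPM in HFD and 19.4, 21.2, 22.8, 18.5 and 24 CPM in HSD libraries, which overlap (−0.60 ± 0.17, adjusted p = 0.333), and mRpL49 had −0.32 ± 0.10 (adjusted p = 0.333). The smallest p in HFD against CD were those of mRpL11 (0.37 ± 0.15) and mRpL49 (0.25 ± 0.10), both with adjusted p = 0.717, and in HSD against CD those of mRpS6 (−0.38 ± 0.14) and mRpL32 (−0.35 ± 0.15), both with adjusted p = 1. The ovary germline level ran from 5.13 to 7.67 in HFD and from 4.67 to 7.15 in HSD day 0 libraries, and its part was not tested. The HSD libraries f13 and f15, with muscle levels of 9.61 and 9.35, had the lowest mean member levels of their group. These were 4.75 and 4.73, against 4.89 to 4.96 in f11, f12 and f14. The HFD library f8, with a muscle level of 9.80, had a member level of 5.20. No fit left out f13 and f15 together. Without f12, 0 members passed in the 3 pairs, the median in HSD against HFD was −0.29, and mRpL15 had −0.60.

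In day 50 daughters, 1 member was lower in HSD against CD and 0 higher, where 6.56% of the 10132 genes tested were lower and 2.92% higher. It was mRpS18C, at 22.4, 17.2, 16.3, 14.7 and 16.1 CPM in CD and 12, 11.6, 15.1 and 12.8 CPM in HSD libraries, which overlap (−0.47 ± 0.14, adjusted p = 0.0468, edgeR). The call was lost without any 1 of f31 to f39 or f41 to f44. In HFD against CD 0 members passed by edgeR, as did 6.24% of all genes, with 7 members and 18.1% of genes at an unadjusted p under 0.05, and 3 members and 9.26% of genes by DESeq2. mRpL14 (0.19 ± 0.06, adjusted p = 0.0894) and mRpS9 (0.18 ± 0.06, adjusted p = 0.0965) had the smallest p, and without f31 2 members and without f40 1 member were called. Over all genes, 479 were called without f31 and 729 without f40, against 632 with every library.

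In HSD against HFD at day 50, 0 members passed by edgeR, as did 0% of all genes, with 17 members, all lower, and 15.5% of genes at an unadjusted p under 0.05, and 1 member and 3.29% of genes by DESeq2. Of the 73 members 72 had a negative value, with a median of −0.10. mRpL39 was at 75.2, 74.8, 78.2, 74.7 and 73.5 CPM in HFD and 68.8, 63.6, 63.6 and 64.2 CPM in HSD daughters. Its groups did not overlap, although the difference did not pass the threshold (−0.21 ± 0.06, adjusted p = 0.132). mRpL23 had −0.26 ± 0.08 (adjusted p = 0.145), and without f40 2 members were among 326 genes called.

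In the fits within a day, no member of sons passed the threshold by maternal diet. At day 0, 0 members passed by edgeR in the same 3 pairs of diets, as did 0% of the 12591 genes tested, and DESeq2 called 0 members in each. Before adjustment, at p under 0.05, 0, 6 and 12 members passed, where 1.76%, 3.04% and 8.62% of all genes did. The medians in HSD against CD and HSD against HFD were −0.32 and −0.29, with 71 and 68 of 73 negative, and those of all genes −0.04 and −0.02. mRpL39 was at 28.9, 20.3, 24.6, 27.7 and 25.2 CPM in CD and 20.2, 12.9, 15.9, 16.2 and 17.4 CPM in HSD sons, which do not overlap (−0.70 ± 0.29, adjusted p = 0.974). In HFD sons it was at 16.6, 23.7, 66.7, 22 and 23.4 CPM, the 66.7 being library m8. mRpL17 had −0.49 ± 0.17 in HSD against CD (adjusted p = 0.974), mRpS25 −0.49 ± 0.14 and mRpL39 −0.82 ± 0.29 in HSD against HFD (adjusted p = 0.535 for both), and mRpL37 0.57 ± 0.33 and mRpL15 0.30 ± 0.20 in HFD against CD (adjusted p = 0.991 for both). mRpL37 was at 57.1 CPM in m8 and between 14.6 and 17.7 CPM in the other HFD sons, and mRpL15 at 43.4 and between 19 and 19.8 CPM. Without m1, m3, m4 and m8, 0 members passed in the 3 pairs, the medians in HSD against CD and HSD against HFD were −0.15 for both, and the log2 fold change was 0.32 for mRpL37 and 0.14 for mRpL15 in HFD against CD and −0.40 for mRpL39 in HSD against HFD. The 1 fit over all progeny groups, which kept m1, m3, m4 and m8, called 21 members, all lower, in HSD against HFD and 1 in HFD against CD. In it the HFD day 0 sons thus included m8, whose mean member level was 5.07, against 4.13 to 4.35 in the others. The share of all genes called in that fit is not given here. Without m8, 2 members were lower in HSD against CD, among 542 genes called.

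At day 10, 0 members of sons passed by edgeR in the same 3 pairs, as did 0% of the 12518 genes tested, and DESeq2 called 0. At an unadjusted p under 0.05, 4, 0 and 4 members passed, where 2.55%, 3.24% and 4.33% of all genes did. The smallest p in HFD against CD were those of mRpL32 (0.36 ± 0.09) and mRpL21 (−0.22 ± 0.07), and in HSD against CD those of mRpL38 (0.18 ± 0.09) and mRpL41 (−0.22 ± 0.12), all with adjusted p = 1. In HSD against HFD they were those of mRpL21 (0.21 ± 0.07, adjusted p = 0.807) and mRpL23 (−0.28 ± 0.12, adjusted p = 0.998).

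At day 50, 0 members of sons passed by edgeR in the same 3 comparisons, as did 0% of the 12659 genes tested, and DESeq2 called 0. Before adjustment, at p under 0.05, 3, 1 and 4 members passed, where 28.7%, 16.2% and 4.95% of all genes did. mRpL15 was at 11.1, 14.7, 13.2, 16 and 12.3 CPM in CD and 17, 17.3 and 17.2 CPM in HFD sons, without overlap (0.45 ± 0.18, adjusted p = 0.118), and at a median of 17.2 CPM, from 15.7 to 28.9 (m44), in the 6 HSD sons (0.49 ± 0.15 against CD, adjusted p = 0.302). mRpL45 had −0.35 ± 0.15 in HFD against CD (adjusted p = 0.14), mRpL24 0.38 ± 0.18 in HSD against CD (adjusted p = 0.308), and mRpL39 0.48 ± 0.20 and mRpL45 0.35 ± 0.14 in HSD against HFD (adjusted p = 0.848 for both). Without m45, 1 member was lower in HFD against CD, among 2360 genes called. In the fit over all progeny groups 1 member was called there too, and the share of all genes is not given here. In HFD against CD, rho between log2 fold change and length was −0.62 over members and −0.33 over all genes. In the same comparison the 18 testis genes had a median of 2.31, with 0 past the threshold by edgeR, and their part was not tested.

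The difference between sons and daughters in the effect of maternal diet passed the threshold for no member by edgeR. For HFD against CD, the difference of the 2 effects had 0 members past the threshold by edgeR at day 10, as did 0.00779% of the 12839 genes tested, and 0 at day 50, as did 0.202% of 12872. For HSD against CD it had 0 at day 10 (0% of genes) and 0 at day 50 (0.109%). At an unadjusted p under 0.05, 2 members passed for HFD at day 10 (18.3% of genes), 2 for HSD at day 10 (13.8%), 5 for HFD at day 50 (17.3%) and 7 for HSD at day 50 (12.3%). DESeq2 called 1 member for HFD at day 50, where it called 3.77% of genes, and 0 in the other 3. The smallest p were those of mRpL32 for HFD at day 10 (0.52 ± 0.17, adjusted p = 0.184), mRpL35 for HSD at day 10 (−0.44 ± 0.17, adjusted p = 0.343), mRpS30 for HFD at day 50 (−0.49 ± 0.15, adjusted p = 0.127) and mRpL15 for HSD at day 50 (0.55 ± 0.19, adjusted p = 0.285). Next were mRpL28 (−0.37 ± 0.17), mRpL17 (−0.36 ± 0.17), mRpL1 (−0.70 ± 0.27) and mRpL51 (0.65 ± 0.27) in the same order. Without m44 or m45, 1 member was lower for HFD at day 50, among 102 and 629 genes called in the same order.

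Over all 40 comparisons, each of the 73 genes passed the threshold in at least 1, and 12 comparisons held at least 1 such gene. mRpL28 and mRpL9 passed in 9 each and mRpL42 and mRpL27 in 8 each, lower in every one. mRpL37 was higher in 6 comparisons and lower in 3, and mRpS26 and mRpS30 were higher in 5 and lower in 3.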

How the data were processed

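The authors deposited 2 tables of whole-number counts per gene, 1 for mothers and 1 for progeny, with no values of another unit. Per the submitters' processing notes, the build was BDGP6 and kallisto, R 4.2.0 and DESeq2 1.36.0 were used, with no roles given. The sources used here do not say how the counts were made whole, and reads shared between similar or overlapping transcripts can affect a gene's count. Symbols and transcript lengths came from the BDGP6.54 annotation, and 10 genes had no symbol. Tests were edgeR 4.0.16 quasi-likelihood F tests in R 4.3.3 (genes kept by filterByExpr at min.count 10 and min.total.count 15, TMM scaling per fit), adjusted by Benjamini-Hochberg over all genes, with a threshold of 0.05. SE is the absolute log2 fold change over the square root of F. The scripts were tested on simulated data. Diets were compared within sex and day, days within sex and diet, and sexes within CD and day. Alternatives were DESeq2 1.42.0, median-of-ratios factors, no filter, 1 fit over all progeny groups, each library left out, and the ovary germline level as a covariate. Libraries with a transcript of the other sex were also left out together, as were m27 and m45 (chosen after seeing the data). In another alternative f21, f22, f26 and f27 were left out. These were the HFD day 10 daughters of highest and the HSD day 10 daughters of lowest muscle level, and not all of them stood apart from their group.

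Within groups, no pair of libraries agreed within sampling noise (lowest chi-square per degree of freedom 5.92 over 200 pairs). Library numbers are not shared between groups, so nothing pairs libraries. Members were named by rank: in each comparison the 4 rises and 4 falls of smallest adjusted p, or the 2 of smallest p where none passed, and the extremes of level, range and likeness to the others. Other genes named were chosen after their values were seen. The members and lists were chosen with earlier results of these data known.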

Additional observations from a re-analysis of the deposited data

Results flagged for a closer look

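Of 20 groups with 4 to 10 libraries, 3 held a library far from the others in the mean log2(CPM + 1) of the 73 genes, where chance flags about 1 in 20 groups. In HFD day 0 sons the library labelled m8 was at 5.07, with the others between 4.13 and 4.35; its osk level was 1327 CPM and its testis list was at 0.62 on the log2 scale. In HSD day 50 sons m44 was at 5.02, with the others between 4.01 and 4.31; its cytosolic ribosomal protein list was at 10.20, against 8.43 to 9.43 in the others, and its ovary germline list at 2.70, against 3.36 to 3.71. In HSD day 10 daughters f29 was at 4.74, with the others between 5.01 and 5.05; its muscle list was at 9.37, against 7.51 to 8.37 in the others.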

How the results depend on the processing

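Counts of called members are given here, without the share of all genes called in the same setting. Leaving out 1 library gave 683 counts, of which 640 were within 1.5 times the reported one; the ranges of the rest were 12 to 31 in HSD against HFD, 0 to 1 in HSD against CD (day 10 daughters); 0 to 2 in HFD against CD, 0 to 1 in HSD against CD and 0 to 2 in HSD against HFD (day 50 daughters); 0 to 2 in HSD against CD (day 0 sons), 0 to 1 in HFD against CD (day 50 sons) and 0 to 1 for the HFD effect in sons minus daughters at day 50. For day 50 against day 10 they were 7 to 17 in CD daughters, 14 to 31 in HFD daughters, 0 to 17 in HFD sons and 0 to 12 in HSD sons, for day 10 against day 0 they were 0 to 3 in HFD daughters and 4 to 31 in HFD sons, and for males against females at day 0 they were 37 to 69. The other alternatives gave 182 counts, 150 of them within 1.5 times.

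DESeq2 gave 6 in HSD against HFD at day 0, 3 in HFD against CD and 1 in HSD against HFD at day 50 in daughters. For day 10 against day 0 it gave 7 in HFD daughters, 24 in HFD sons and 1 in HSD sons, for day 50 against day 10 it gave 1 in HSD daughters and 2 in HFD sons, and it gave 1 for the HFD effect in sons minus daughters at day 50. In HSD against CD in day 50 daughters, the count was 0 with median-of-ratios factors, with no filter and in 1 fit over all progeny, and with no filter CD daughters had 8 for day 50 against day 10. The 1 fit over all progeny gave 3 in HSD against HFD (day 0 daughters), 1 in HFD against CD and 21 in HSD against HFD (day 0 sons) and 1 in HFD against CD (day 50 sons). That fit kept m8 and the other libraries with a transcript of the other sex. For day 10 against day 0 it gave 12 in CD daughters, 1 in HFD daughters, 43 in HFD sons and 8 in HSD sons, and for day 50 against day 10 it gave 50 in HFD daughters, 1 in HFD sons and 12 in HSD sons.

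Without libraries with a transcript of the other sex, day 10 against day 0 gave 17 in CD sons and 31 in HFD sons. Day 50 against day 10 then gave 17 in HFD sons. Without m27 and m45, a setting chosen after seeing the data, day 50 against day 10 in HSD sons gave 23. Without f21, f22, f26 and f27, HSD against HFD in day 10 daughters gave 6, day 10 against day 0 in HFD daughters 28 and the HFD effect in sons minus daughters at day 10 gave 1. With the ovary germline covariate, whose values did not overlap between the groups, HSD against HFD in day 10 daughters gave 0. The cause of these moves was not tested. No paired analysis was possible because the groups compared share no library numbers. Depth limits mRpL34 most, with 1.67 CPM in its lowest library.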
